A study of Homo sapiens with 17 samples.

Results

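This account concerns 4 genes of peptide signalling, picked by symbol: the receptor genes PROKR1 and NPY1R and the ligand genes GAL and UTS2. They are 4 of the 1400 genes that appear in at least 1 of the 4 tables deposited by the authors. All 4 were picked because a knockdown table lists them, so their values are a description and no test was run on them. RNA came from PC3 cells, a line established from a human prostate cancer, and was sequenced 7 days after viral infection. The groups MED25A and MED25B carried a short hairpin RNA (shRNA) of sequence A or B against MED25 in a lentivirus, and their control a luciferase shRNA in the same kind of virus. The groups ETV4A and ETV4B carried shRNA sequence A or B against ETV4 in a retrovirus, and their control a control shRNA in a retrovirus. The series design text calls the control an empty vector. Each shRNA had 3 libraries, the lentiviral control 3 and the retroviral control 2. All groups were early-passage cells of 1 line that carried a virus, and no untreated cells were used here. Whether replicates were separate cultures is not stated in the labels.

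Most neuropeptides and many peptide hormones are cut from larger precursors, secreted, and sensed at the surface of target cells by G protein-coupled receptors. Such receptors cross the membrane several times and pass the signal to a G protein inside the cell. In prostate tumours, peptides of this kind are best known from neuroendocrine cells, which secrete them to neighbouring cells. MED25 is a subunit of the Mediator complex, which links transcription factors to RNA polymerase II, and ETV4 is a transcription factor of the ETS family that can bind MED25.

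Values were taken from the authors' deposited tables, which hold 1 log2 ratio and 1 score for each gene and no value for a single library. The depth of the libraries and the spread between replicates are therefore unknown, and no ratio below has an error. Each log2 ratio is given as knockdown over control, with its direction set from the table headers. Read that way, every gene in the tables was lower after knockdown, and by at least 1.5-fold. A gene missing from a table may have changed less, changed the other way or not been tested, and it cannot be called unchanged. The authors' deposited tables put MED25 at 51.6% of control with MED25A and at 30.5% with MED25B. They put ETV4 at 26.1% of control with ETV4A and at 15.8% with ETV4B. These targets helped to set the direction of the ratios. Of 9 neuroendocrine markers, such as CHGA and SYP, the authors' deposited tables list 0. Of 11 prostate epithelial and PC3 markers they list 1, the keratin gene KRT19, at −0.61 with MED25B. Levels of these markers were not available here, so the labelled cell type could not be checked against them.

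The 4 genes fell into 4 different listing patterns. PROKR1 was listed with MED25A and with both ETV4 shRNAs, NPY1R with both ETV4 shRNAs, GAL with both MED25 shRNAs, and UTS2 with shRNA A of each target. None of the 4 was listed in all tables. The table of MED25A held 3 of the 4 genes, and it held 56.1% of the 1400 genes. The table of MED25B held 1 of the 4, against 26.7% of all. For ETV4A the count was 3 of the 4, against 35.4% of all, and for ETV4B it was 2 of the 4, against 7.00% of all. Because the genes were picked from these tables, nothing is read from these shares.

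By the authors' deposited tables, a decrease of at least 2-fold was found for 3 of 3 listed members with MED25A, against 24.0% of the genes in that table. It was found for 0 of 1 with MED25B, against 20.1%, for 3 of 3 with ETV4A, against 23.2%, and for 1 of 2 with ETV4B, against 20.4%. The median log2 ratio of the listed members was −1.19 with MED25A, where all 786 genes of the table had −0.78. It was −1.64 with ETV4A, against −0.79 for all 495 genes, and −1.25 with ETV4B, against −0.77 for all 98 genes. With MED25B the only listed member, GAL, was at −0.79, against −0.77 for all 374 genes. Here too the choice of members used these contrasts, and the shares support nothing.

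**Figure D1:**
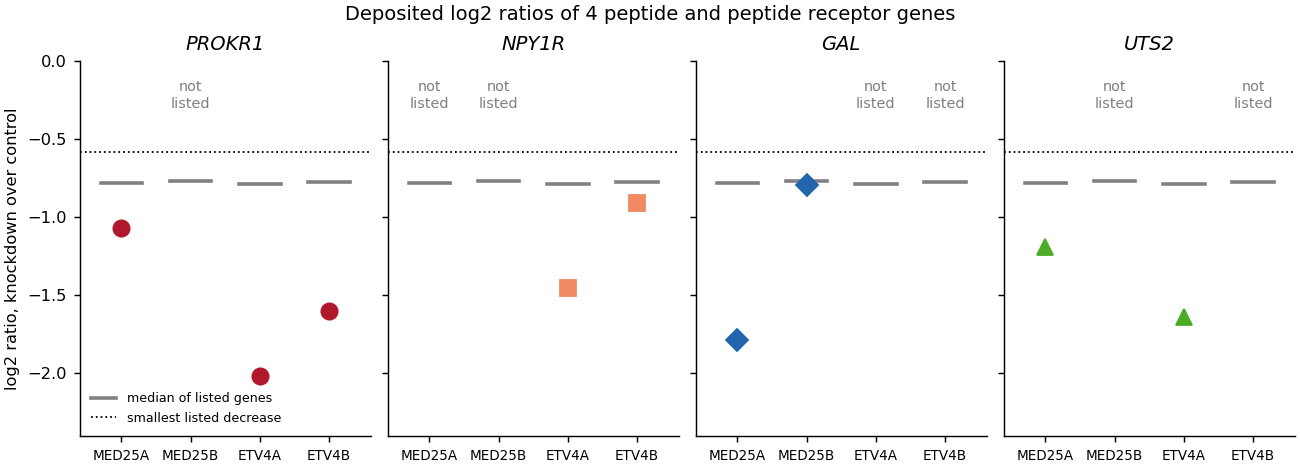
Log2 ratio of knockdown over control (vertical axis) for PROKR1, NPY1R, GAL and UTS2 in each of the 4 tables deposited by the authors (horizontal axis), with 1 point per gene and table and no error. Grey bars are the median of all genes in the table and the dotted line is the smallest decrease the tables hold; PROKR1 with ETV4A, at −2.02, is the lowest point.

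PROKR1 (ENSG00000169618, chromosome 2) encodes a receptor for prokineticins, secreted proteins known for effects on blood vessel growth, gut motility and pain sensing. It was the member with the largest decrease and the one found in most tables. In the authors' deposited tables its log2 ratio was −2.02 with ETV4A, −1.60 with ETV4B and −1.07 with MED25A. On a linear scale the authors' deposited tables leave 24.7%, 33.0% and 47.6% of control in that order. With ETV4A it was rank 9 of 495 genes by decrease, directly ahead of ETV4 itself at −1.94. With ETV4B it was rank 4 of 98, between a clone-named transcript and ESM1 at −1.57. With MED25A it was rank 151 of 786, so its place was far higher in the ETV4 tables.

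**Figure D2:**
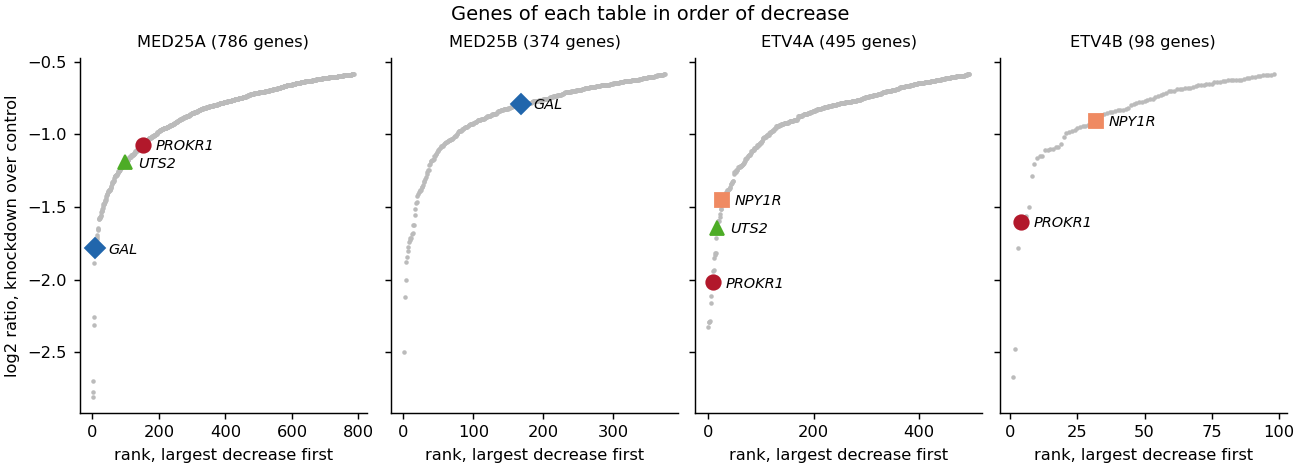
Genes of each deposited table in order of decrease (horizontal axis: rank, largest decrease first; vertical axis: log2 ratio of knockdown over control), 1 panel per shRNA. Grey points are all listed genes and coloured points are the members: GAL is rank 9 of 786 with MED25A and rank 168 of 374 with MED25B.

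The gap between targets was wide for PROKR1. Among the 112 genes in the tables of MED25A and ETV4A, the median difference of the log2 ratios, ETV4A minus MED25A, was 0.16, and for PROKR1 it was −0.94. RGS4 alone had a more negative difference, at −1.83 with ETV4A and −0.66 with MED25A in the authors' deposited tables. RGS4 was named after its values were seen, and it encodes a regulator that shortens signalling by G protein-coupled receptors. Among the 25 genes in the tables of MED25A and ETV4B, no gene had a more negative difference than PROKR1, at −0.53, against a median of 0.32. The MED25 and ETV4 tables rest on separate control libraries, and the differences were not tested.

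Of the 10 genes listed in exactly the same 3 tables, PROKR1 was the lowest with both ETV4 shRNAs and the fifth with MED25A. The nearest in pattern, by Euclidean distance of the log2 ratios over the 3 tables, was CD55, an inhibitor of complement, at a distance of 0.83. Next came the virus receptor gene CXADR at 0.85, SHISA3 at 0.96, the transporter gene ABCA8 at 1.09 and the cystine transporter gene SLC7A11 at 1.35. The authors' deposited tables put CXADR at −1.71 for ETV4A, −0.85 for ETV4B and −0.83 for MED25A. None of the 9 other genes with this listing therefore lay close to PROKR1 in this measure. Genes with any other listing were not compared.

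The value of PROKR1 carries a limit of annotation. In GENCODE release 29, PROKR1 and the DNA repair gene APLF lie on the same strand and overlap, and 38.1% of the exonic bases of PROKR1 (1628 of 4273) are also exonic in APLF. APLF, per the authors' deposited tables, was at −0.85 with ETV4A and at −0.65 with ETV4B, and it was missing from both MED25 tables. The sources used here do not say how reads in the common bases were shared out, so both values are uncertain.

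The promoter of PROKR1 is shown because ETV4 is an ETS factor and the gene was lowest with the ETV4 shRNAs. ETS factors bind the core GGAA, and the capitals mark this core as printed or as TTCC, its reverse complement. The sequence is RefSeq, GRCh38.p14, chr2:68643329-68643628, plus strand, from 250 bases before the start of the gene to 50 bases after it.
PROKR1: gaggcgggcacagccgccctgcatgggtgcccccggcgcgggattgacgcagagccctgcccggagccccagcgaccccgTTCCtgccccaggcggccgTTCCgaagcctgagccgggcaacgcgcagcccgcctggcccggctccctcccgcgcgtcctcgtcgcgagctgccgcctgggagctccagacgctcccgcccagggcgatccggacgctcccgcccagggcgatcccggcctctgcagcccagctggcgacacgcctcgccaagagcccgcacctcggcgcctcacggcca
This promoter has 77.3% G or C and 2 cores, at −170 and −151 from the start, where position 1 is the first base of the gene. Over 35116 RefSeq promoters of this length the median was 3 cores and 58.7% G or C, and 95.5% held at least 1 core. At least 2 cores, the count in PROKR1, were found in 83.8% of them.

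NPY1R (ENSG00000164128, chromosome 4) encodes the Y1 receptor for neuropeptide Y, a peptide of nerve endings known for its part in appetite and vessel tone. It was listed with the ETV4 shRNAs and with neither MED25 shRNA. In the authors' deposited tables it was at −1.45 with ETV4A and at −0.91 with ETV4B, or 36.6% and 53.4% of control. It was rank 27 of 495 with ETV4A and rank 32 of 98 with ETV4B. Its neighbours with ETV4B were PELI1, at −0.91, and MYB, at −0.90, in the authors' deposited table.

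MYB, a transcription factor gene of blood progenitor cells, was also the gene nearest to NPY1R in pattern. Among the 26 other genes listed with both ETV4 shRNAs and neither MED25 shRNA, its distance over the 2 tables was 0.0088. It was at −1.44 with ETV4A and −0.90 with ETV4B in the authors' deposited tables. FAM110C at 0.13, RUNDC3B at 0.19, the inflammasome gene NLRP3 at 0.21 and SIGLEC15 at 0.22 came next. Both tables share the retroviral control libraries.

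NPY1R overlaps NPY5R, the gene of another neuropeptide Y receptor, on the opposite strand in GENCODE release 29. The exons have 528 bases in common, 12.6% of those of NPY1R. NPY5R is in none of the authors' deposited tables. If counting ignored strand, reads from the common bases cannot be assigned to 1 of the 2 genes.

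The NPY1R promoter below has the most ETS cores of the 4 promoters shown. It is RefSeq, GRCh38.p14, chr4:163332547-163332846, minus strand, with the cores again in capitals.
NPY1R: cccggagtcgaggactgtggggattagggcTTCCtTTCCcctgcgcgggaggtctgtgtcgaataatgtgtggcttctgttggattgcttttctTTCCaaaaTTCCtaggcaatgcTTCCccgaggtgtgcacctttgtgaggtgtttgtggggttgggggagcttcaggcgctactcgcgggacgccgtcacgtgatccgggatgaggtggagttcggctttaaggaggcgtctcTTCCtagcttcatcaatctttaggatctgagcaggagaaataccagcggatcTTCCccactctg
It holds 7 cores, and 8.29% of all promoters hold at least as many. They lie at −220, −215, −156, −148, −134 and −14 before the start and at 39 after it. Each reads TTCC on the printed strand. Its G or C share is 55.0%.

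GAL (ENSG00000069482, chromosome 11) encodes the precursor of galanin, a neuropeptide that acts on the receptors GALR1, GALR2 and GALR3 and is known for dampening the release of other transmitters. It was listed with the MED25 shRNAs and with neither ETV4 shRNA. The authors' deposited tables gave log2 ratios of −1.78 with MED25A and −0.79 with MED25B, or 29.0% and 57.8% of control. The decrease was rank 9 of 786 in MED25A cells, where the authors' deposited table has ZNF518A, at −1.81, and the amino acid transporter gene SLC7A5, at −1.77, on either side. For MED25B it was rank 168 of 374. There ZNF296 and the ETS gene ETS1, both also at −0.79, lie on either side in the authors' deposited table.

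The shRNAs against MED25 thus gave GAL very unequal values. Among the 153 genes listed with both, the median of shRNA A minus shRNA B was −0.05 on the log2 scale, and 25% of them lay below −0.25. Of these 153 genes, 90 were lower with shRNA A. The deposited score of GAL with MED25B was low, at 23.0, rank 358 of 374. For GAL the difference was −0.99. AWAT2, named after its value was seen, was the only gene with a more negative one. The authors' deposited tables put MED25 itself at −0.96 for MED25A and at −1.71 for MED25B. MED25A thus left less GAL and more MED25 transcript than MED25B. With ETV4, shRNA A also left more of the target transcript, and shRNA A minus shRNA B was −0.42 for PROKR1 and −0.54 for NPY1R. Whether these differences have to do with the target transcript left was not tested. The median of shRNA A minus shRNA B over the 57 genes listed with both ETV4 shRNAs was −0.22. Of these 57 genes, 41 were lower with shRNA A. A more negative difference than that of PROKR1 was found for 17 of them, and than that of NPY1R for 13.

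In pattern, GAL was nearest to SLITRK4, a membrane protein gene of neurons, at a distance of 0.24 among the 124 other genes listed with both MED25 shRNAs and neither ETV4 shRNA. It was followed by CDC42EP1 at 0.27, the histone gene HIST1H4C at 0.28, the clock repressor gene NR1D1 at 0.35 and PRRT3-AS1 at 0.38. SLITRK4, per the authors' deposited tables, was at −1.57 with MED25A and −0.69 with MED25B. HIST1H4C has near-identical copies that can share reads, and PRRT3-AS1 is an antisense gene, so their values are uncertain. GAL overlaps no other gene in GENCODE release 29, and neither of its coding neighbours, PPP6R3 and TESMIN, is in the authors' deposited tables.

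UTS2 (ENSG00000049247, chromosome 1) encodes the precursor of urotensin II, a peptide known as a strong constrictor of blood vessels that acts on the receptor UTS2R. It was listed with shRNA A of each target and with shRNA B of neither. In the authors' deposited tables it was at −1.64 with ETV4A and at −1.19 with MED25A, or 32.1% and 43.8% of control. The ranks by decrease were 18 of 495 and 99 of 786. Of the 112 genes in both tables, 8 had a more negative difference, ETV4A minus MED25A, than the −0.45 of UTS2.

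Of the 76 other genes with this listing, the sterol transporter gene ABCG1 was nearest to UTS2, at a distance of 0.07, with −1.57 for ETV4A and −1.20 for MED25A in the authors' deposited tables. The others lay farther away: FSIP1 at 0.44, PCK2 at 0.46, NNMT at 0.46 and ASNS at 0.47. PCK2, a mitochondrial enzyme of glucose synthesis, and ASNS, asparagine synthetase, are known targets of the stress factor ATF4. In the authors' deposited tables ASNS was at −1.22 with ETV4A and −1.41 with MED25A.

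UTS2 and the clock gene PER3 overlap at their ends on opposite strands in GENCODE release 29, and 48.5% of the exonic bases of UTS2 (868 of 1791) are also exonic in PER3. PER3 is in none of the authors' deposited tables. The sources used here do not say whether counting used strand, so the UTS2 values are uncertain. The next gene on the other side, TNFRSF9, a receptor of activated T cells, was at −1.22 with ETV4A and −0.78 with MED25B in the authors' deposited tables.

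RefSeq has 2 starts for UTS2, and both promoters are shown because they differ in ETS cores. Both are on the minus strand of GRCh38.p14, the upstream one at chr1:7853442-7853741 and the downstream one at chr1:7853016-7853315.
UTS2 upstream start: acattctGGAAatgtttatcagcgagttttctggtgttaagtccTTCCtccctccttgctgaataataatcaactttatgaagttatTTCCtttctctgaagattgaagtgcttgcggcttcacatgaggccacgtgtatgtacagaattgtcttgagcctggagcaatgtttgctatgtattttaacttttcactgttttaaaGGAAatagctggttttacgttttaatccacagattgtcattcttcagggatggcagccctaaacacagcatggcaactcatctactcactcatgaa
UTS2 downstream start: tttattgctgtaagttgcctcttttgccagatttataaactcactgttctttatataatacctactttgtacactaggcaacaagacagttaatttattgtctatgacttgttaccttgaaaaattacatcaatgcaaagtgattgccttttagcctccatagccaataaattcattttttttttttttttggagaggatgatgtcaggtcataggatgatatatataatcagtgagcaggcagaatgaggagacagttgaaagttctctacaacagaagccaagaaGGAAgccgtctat
The upstream promoter holds 4 cores and the downstream promoter 1, with 39.3% and 34.3% G or C. At least 4 cores were found in 46.0% of all promoters.

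Other motifs were sought on both strands of these 4 promoters. The longer ETS motif CCGGAAGT, which contains the core, was found in none of them and in 4.14% of all promoters. The AP-1 motif TGANTCA, bound by factors of the FOS and JUN families, was found in none of them and in 7.71% of all. The cyclic AMP element TGACGTCA was found in none of them and in 1.85% of all. The element TGATGNAA, bound by ATF4 with C/EBP factors, was added after the values of ASNS and PCK2 were seen. It was found in the downstream UTS2 promoter alone, at −126 on the reverse strand, and in 3.62% of all promoters. A match describes letters only, and its absence says nothing of a factor's binding. A GAL promoter was not used here.

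The deposited score also differed among the 4 genes. It is labelled an adjusted p by the authors, runs upward with significance if read as a negative logarithm, and has its minimum just above 20 in each table. NPY1R had 357 with ETV4A, rank 20 of 495, and 124 with ETV4B, rank 29 of 98, in the authors' deposited tables. PROKR1 had 219 with ETV4A, 100.3 with ETV4B and 55.2 with MED25A in the authors' deposited tables. UTS2 had 100.4 with ETV4A and 38.0 with MED25A, and GAL had 76.4 with MED25A and 23.0 with MED25B, in the authors' deposited tables.

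Among genes of like decrease, taken as those within 0.1 of the member on the log2 scale, the scores of PROKR1, GAL and UTS2 were below the median in every table that lists them, and those of NPY1R were above it. With MED25B, 138 other genes lay this close to GAL, and 11 of them had a lower score in the authors' deposited table. With ETV4A, 0 of the 7 genes within 0.1 of UTS2 scored lower, and their median score was 282 in the authors' deposited table. For PROKR1, 38 of 93 such genes scored lower with MED25A, 2 of 5 with ETV4A and 1 of 3 with ETV4B. For NPY1R, 16 of 19 scored lower with ETV4A, and with ETV4B 12 of 23 did, so that its 124 was close to their median of 122 in the authors' deposited table. The remaining counts were 2 of 8 for GAL and 16 of 71 for UTS2, both with MED25A. What sets the score at a given decrease, such as the expression level, was not tested.

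**Figure D3:**
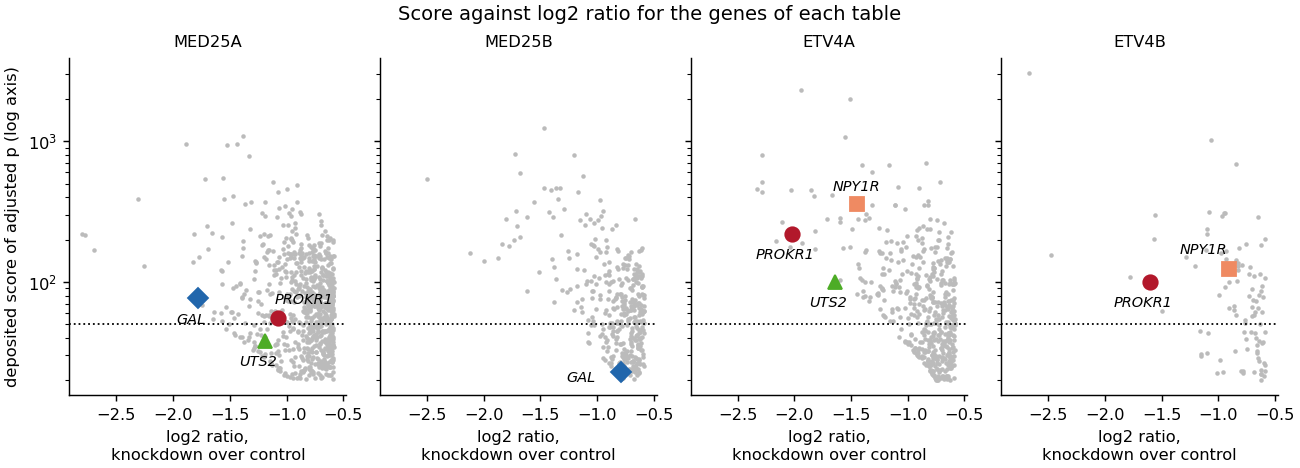
Deposited score (vertical axis, log scale) against log2 ratio of knockdown over control (horizontal axis), 1 panel per shRNA, with all listed genes in grey and the members in colour. The dotted line is a score of 50; UTS2 with MED25A, at 38.0, and GAL with MED25B, at 23.0, lie under it.

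Most genes of the tables were listed once, and the 4 members were not among them. As the members were picked from these same tables, nothing is read from this. Of the 1400 genes, 295 were in at least 2 tables, 48 in at least 3 and 10 in all 4. The sets of tables that hold PROKR1, NPY1R, UTS2 and GAL comprised 10, 27, 77 and 125 genes. Within its set, GAL was the third lowest of 125 with MED25A and number 57 with MED25B. UTS2 was the third lowest of 77 with ETV4A and number 26 with MED25A. NPY1R was number 7 of 27 with ETV4A and number 11 with ETV4B.

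**Figure D4:**
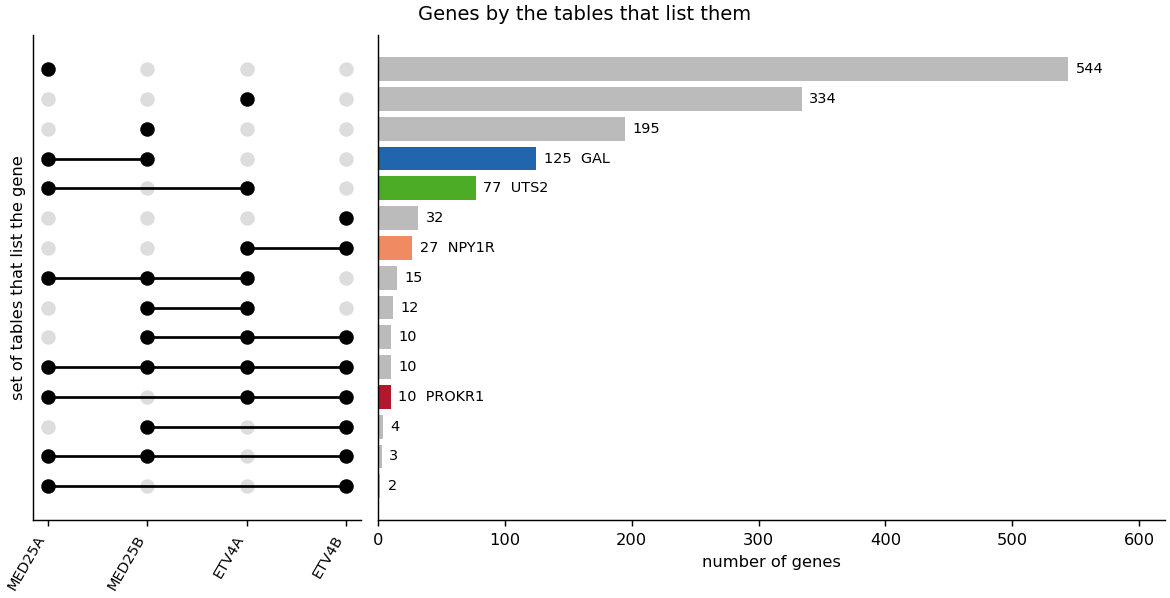
Number of genes (horizontal axis) in each set of tables that list them (vertical axis; filled dots mark the tables of a set). Coloured bars hold a member: 125 genes with GAL, 77 with UTS2, 27 with NPY1R and 10 with PROKR1.

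Known partners of the 4 gene products were looked up next. Of 17 ligands and receptors in direct contact with these systems or closely related to them, among them PROK1, PROK2, NPY, NPY5R, GALR1 to GALR3 and UTS2R, 1 was listed. It was spexin, a peptide that acts on galanin receptors, under its older symbol C12orf39, at −0.91 with ETV4A in the authors' deposited table. Whether PC3 cells express the other partners cannot be read from these tables.

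Of 79 peptide ligand genes, GAL and UTS2 included, 4 were listed with MED25A, 2 with MED25B, 3 with ETV4A and 0 with ETV4B. Their median log2 ratio was −1.22, −0.75 and −0.91 in the first 3 tables, where all genes had −0.78, −0.77 and −0.79. These medians hold GAL and UTS2, which were picked because they are listed, and nothing is read from them. The adrenomedullin-related peptide gene ADM2 had the same listing as UTS2, at −0.91 with ETV4A and −1.25 with MED25A in the authors' deposited tables. Neuromedin B (NMB) was at −0.76 with MED25A, the neurosecretory protein gene VGF at −0.71 with MED25B, and stanniocalcin 2 (STC2) at −0.78 with ETV4A in the authors' deposited tables.

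Of 79 peptide receptor genes, PROKR1 and NPY1R included, each table listed 2. With both ETV4 shRNAs these were the 2 members. With MED25A they were PROKR1 and SSTR5, a somatostatin receptor, and with MED25B they were SSTR5 and NTSR1, a neurotensin receptor. SSTR5 was at −0.73 with MED25A and −0.79 with MED25B, and NTSR1 at −1.55 with MED25B, in the authors' deposited tables. The median log2 ratio of the listed receptors was −0.90, −1.17, −1.73 and −1.25 for MED25A, MED25B, ETV4A and ETV4B, with the members included where listed. Each of these medians rests on 2 genes, and those for the ETV4 shRNAs restate the values of the members alone. Nothing is read from them.

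Beyond peptide receptors, 129 other G protein-coupled receptor genes were looked up, and 2 were listed with MED25A, 6 with MED25B, 5 with ETV4A and 0 with ETV4B. The adrenergic receptor ADRA1D had the listing of GAL, at −1.38 with MED25A and −0.86 with MED25B in the authors' deposited tables. The serotonin receptor HTR7 was at −1.08 and the nucleotide receptor P2RY11 at −0.96 with MED25B in the authors' deposited table. Read-through transcripts join P2RY11 to its neighbour PPAN, so its value is uncertain. The proton-sensing receptor GPR4 and the nucleotide receptor P2RY2 were each at −0.88 with MED25B, and the thrombin receptor F2R was at −0.86 with ETV4A, in the authors' deposited tables. The median log2 ratio of the listed receptors of this group was −1.03, −0.88 and −0.82 in the first 3 tables.

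Taking ligands, receptors, partners, peptide enzymes and other receptors as 331 genes, 26 were in at least 1 table, and 22 of them were not members. Of these 22, ADM2, SSTR5, ADRA1D and DPP4 were in 2 tables each and the rest in 1. In ETV4B, whose table held 98 genes, the members PROKR1 and NPY1R were the only 2 of the 331 genes listed. In ETV4A the lowest of the 10 others was ADM2, at −0.91, which was less lowered than each of the 3 members there. The MED25 tables differed. In the authors' deposited table for MED25A, ADRA1D, at −1.38, and ADM2, at −1.25, were lower than UTS2 and PROKR1 but not GAL. In that for MED25B, the lowest of the 9 others was NTSR1, at −1.55, below the only member there, GAL, at −0.79. The members were picked because a table lists them, so nothing is read from their place among these genes. How many of the 331 genes the authors tested is unknown, so no rate was computed.

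**Figure D5:**
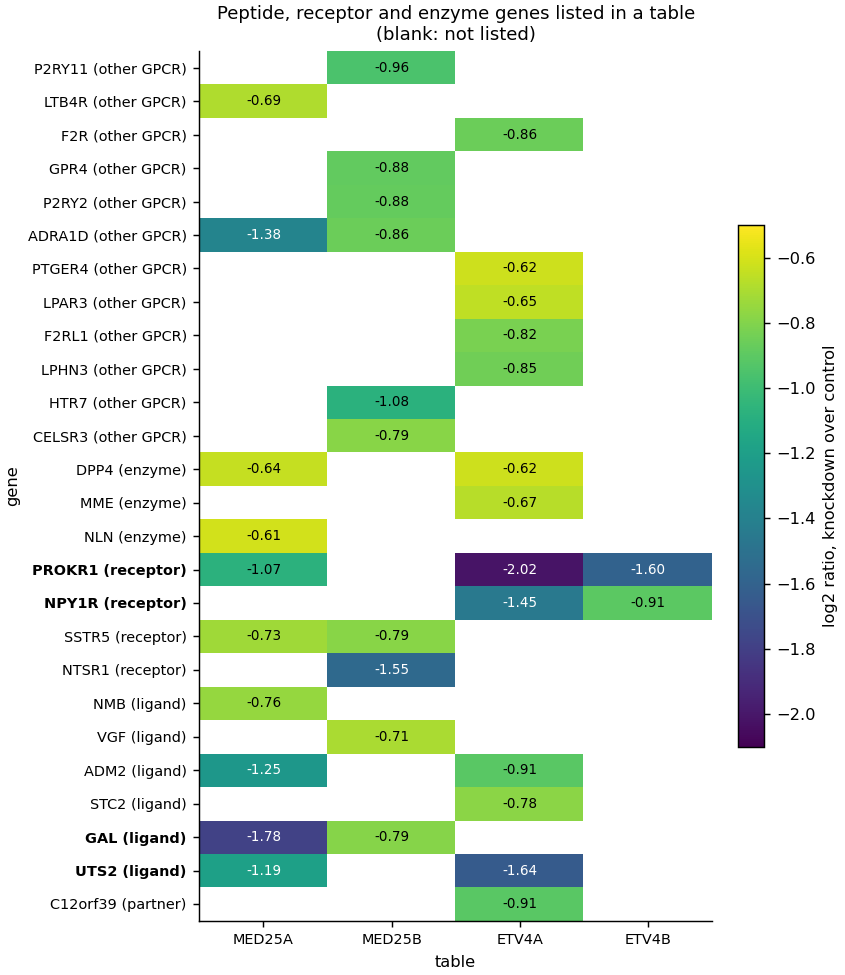
Log2 ratio of knockdown over control (colour and printed value) for the 26 genes of the 5 lists that appear in a deposited table (vertical axis, with the list in brackets; GPCR is G protein-coupled receptor) by table (horizontal axis). Blank cells are not listed, and members, picked because a table lists them, are in bold. PROKR1 and NPY1R are the only genes with a value for ETV4B.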

How the data were processed

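RNA from 17 libraries of infected PC3 cells was sequenced, and Novoalign 3.08.02 aligned the reads to hg19, per the submitters' processing notes. How reads were counted, scaled and tested, with which annotation and whether by strand, was not given in the sources used here. The authors deposited 4 tables of comparisons, each with a log2 ratio and an adjusted p per gene, per the file headers. The adjusted p exceeds 1 on a scale the authors do not state, and this deposited score was used only to rank and filter. The header number common to both tables of a target was taken as the control. It stands first for MED25, whose ratios were turned round, and second for ETV4. The sign of the targeted genes was known when this reading was made.

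Values of single libraries were not analysed here, so no count model, replicate error or depth is given, and nothing was tested. Computed here were ranks, shares of control, Euclidean distances, list counts by Ensembl identifier, exon overlaps in GENCODE release 29 (1350 of 1400 genes matched) and promoter motifs. That annotation and the RefSeq promoters of PROKR1, NPY1R and UTS2 are on a later build than hg19. Genes named are the 4 members, both targets, the 5 genes nearest each member in pattern, neighbours by rank and up to 6 genes per list; others are marked, and genes at the members' loci were added after the tables were seen. Members and lists were chosen with earlier results of these data known, and a few genes of the lists are not reported here. Alternatives were a log2 decrease of 1 or more, a score of 50 or more, protein-coding genes alone, ranking by score, matching by identifier and the largest difference as distance. Python 3.11.15, pandas 2.3.3, numpy 2.4.6 and matplotlib 3.10.9 were used, and the distance and motif searches were tested on simulated data.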

Additional observations from a re-analysis of the deposited data

How the results depend on the processing

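With a log2 decrease of at least 1, listed members numbered 0 instead of 1 with MED25B, as GAL dropped out, and 1 instead of 2 with ETV4B, as NPY1R did. The counts of 3 with each shRNA A were kept. With a score of at least 50, GAL dropped out with MED25B, leaving 0 members. UTS2 dropped out with MED25A, leaving 2. Of the 331 genes of the 5 lists, 5, 2, 3 and 1 were listed for MED25A, MED25B, ETV4A and ETV4B at a log2 decrease of at least 1, against 10, 10, 13 and 2. At a score of at least 50, 4 remained with MED25A, 5 with MED25B, 8 with ETV4A and 2 with ETV4B. Fewer genes pass such minimums by construction.

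The place of a member in its table depended on the measure. By size, PROKR1 exceeded 98.2% of genes with ETV4A, 95.9% with ETV4B and 80.8% with MED25A, and by score 90.1%, 62.2% and 40.6%. By size, GAL exceeded 98.9% of genes with MED25A and 55.1% with MED25B, and by score 57.0% and 4.28%. By size, UTS2 exceeded 96.4% with ETV4A and 87.4% with MED25A, and by score 69.9% and 22.5%. The cause was not tested. NPY1R kept its place within the exact 95% binomial interval of its share, as did all 9 values among protein-coding genes alone. That interval treats the genes of a table as independent draws, so it is wider in a smaller table and holds no replicate error. Matching by identifier gave the same counts, which could hardly differ because each deposited entry holds both identifier and symbol. With the largest difference as distance, the 5 nearest genes were the same for PROKR1 and NPY1R, and 4 of 5 for GAL and UTS2.

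No paired analysis was possible because the tables hold no value for a single library; leaving out each replicate was not run for the same reason. The depth behind each value is unknown.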

Other observations

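Of 27 enzymes that cut peptide precursors or break peptides down, the authors' deposited tables list 2 with MED25A, 2 with ETV4A and 0 with either shRNA B. DPP4, a protease that trims neuropeptide Y, was at −0.62 with ETV4A and −0.64 with MED25A, the listing that UTS2 also has. Neprilysin (MME) was at −0.67 with ETV4A and neurolysin (NLN) at −0.61 with MED25A in the authors' deposited tables. The listed enzymes had a median of −0.62 with MED25A and −0.65 with ETV4A, against −0.78 and −0.79 for all genes of those tables.

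Of 52 genes for G proteins, their regulators and effectors, 3 were listed with MED25A, 2 with MED25B, 2 with ETV4A and 0 with ETV4B. RGS2, which also limits receptor signalling, was at −1.06 with ETV4A in the authors' deposited table, where RGS4 was lower still. The phospholipase gene PLCB1 was at −0.75 and the G protein subunit gene GNG11 at −0.62 with MED25A in the authors' deposited table. The receptor kinase gene ADRBK1 was at −0.76 and the adenylyl cyclase gene ADCY9 at −0.70 with MED25B in the authors' deposited table. The median of the listed genes was −0.66 with MED25A, −0.73 with MED25B and −1.44 with ETV4A. All genes of those tables had −0.78, −0.77 and −0.79. The medians for MED25B and ETV4A rest on 2 genes each, RGS2 and RGS4 for ETV4A, and nothing is read from them.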
